A study of Homo sapiens with 8 samples.

Results

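The 1p36 segment described here is the first 10 Mb of chromosome 1 (hg19), at the end of the short arm, and its members are the islands of H3K27me3 whose midpoint lay in it. It held 431 of the 47432 LY19Y646F islands and 99 of the 58144 LY19WT islands, 530 of 105576 in both lists. The segment was chosen because the LY19WT list was sparse there and the LY19WT input was low, so those values are given as a description. H3K27me3 was measured by ChIP-seq in 2 immortalized lymphoma B-cell lines, both untreated and at passages 10 to 15. Islands are stretches that SICER, a caller for broad marks, joined from neighbouring windows rich in ChIP reads and kept where they exceeded input. LY19Y646F constitutively expressed EZH2-Y646F from a CMV promoter, and LY19WT carried wild-type EZH2. Each line had 3 ChIP libraries, merged by the authors before islands were called, and 1 input library, so there is 1 list per line, the replicates show no spread here and the lines were compared without a test. Whether either line is a single clone, and whether LY19WT carried a control vector, is not given in the sources used here.

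H3K27me3 is written by EZH2, the catalytic subunit of Polycomb repressive complex 2, and marks genes that are kept silent, often in broad domains over developmental regulators. Polycomb complexes in mammals are often found at gene starts rich in CpG dinucleotides. The short arm end of chromosome 1 is rich in genes, carries several candidate tumour suppressor genes and is recurrently deleted in human tumours, lymphomas among them. Its genes include SKI, a co-repressor of SMAD signalling, PRDM16, a zinc finger regulator of brown fat and blood stem cells, and TP73, a relative of p53. CHD5, a chromatin remodeller of the nervous system, and AJAP1, a membrane protein of adherens junctions, also lie there. The spans of 46 listed genes were placed at approximate hg19 positions, which come from general knowledge and not from an annotation, and are not printed. Distances to a gene start below therefore hold only for the start used.

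Starts rich in CpG lay beside islands in both lines, in 1 line or in neither, and 5 promoters are shown for that reason. Each runs from 250 bases before to 50 bases after a RefSeq start (GRCh38.p14), 5′ to 3′ on the strand of the gene, with the searched motif CG, which reads the same on both strands, in capitals. TP73 and HES5, a Notch-pathway repressor, had islands next to the start in both lines. AJAP1 and CAMTA1, a calmodulin-binding transcription activator, had covered gene bodies in LY19Y646F. The CAMTA1 start itself was not beside an island, with the nearest 24.8 kb away in LY19Y646F and 12.4 kb away in LY19WT. GNB1, a G protein subunit used by most cells, had no island on its span in either line.
TP73: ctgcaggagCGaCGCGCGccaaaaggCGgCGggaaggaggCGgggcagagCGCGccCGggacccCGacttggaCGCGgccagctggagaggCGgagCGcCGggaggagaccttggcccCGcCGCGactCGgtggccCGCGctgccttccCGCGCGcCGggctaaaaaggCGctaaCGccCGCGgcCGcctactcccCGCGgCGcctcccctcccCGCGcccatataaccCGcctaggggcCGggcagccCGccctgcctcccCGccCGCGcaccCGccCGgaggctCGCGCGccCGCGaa
HES5: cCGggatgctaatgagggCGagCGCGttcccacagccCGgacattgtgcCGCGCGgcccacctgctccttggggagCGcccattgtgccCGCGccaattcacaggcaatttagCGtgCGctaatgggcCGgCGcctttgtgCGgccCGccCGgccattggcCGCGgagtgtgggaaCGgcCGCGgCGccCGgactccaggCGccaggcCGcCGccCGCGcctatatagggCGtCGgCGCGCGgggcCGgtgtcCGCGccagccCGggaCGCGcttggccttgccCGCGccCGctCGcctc
AJAP1: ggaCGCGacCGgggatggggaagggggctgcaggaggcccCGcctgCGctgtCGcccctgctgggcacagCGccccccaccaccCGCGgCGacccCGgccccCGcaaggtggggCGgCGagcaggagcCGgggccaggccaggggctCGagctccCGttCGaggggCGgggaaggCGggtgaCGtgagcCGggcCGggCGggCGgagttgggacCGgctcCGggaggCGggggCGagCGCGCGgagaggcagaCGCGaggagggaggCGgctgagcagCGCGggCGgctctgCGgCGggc
CAMTA1: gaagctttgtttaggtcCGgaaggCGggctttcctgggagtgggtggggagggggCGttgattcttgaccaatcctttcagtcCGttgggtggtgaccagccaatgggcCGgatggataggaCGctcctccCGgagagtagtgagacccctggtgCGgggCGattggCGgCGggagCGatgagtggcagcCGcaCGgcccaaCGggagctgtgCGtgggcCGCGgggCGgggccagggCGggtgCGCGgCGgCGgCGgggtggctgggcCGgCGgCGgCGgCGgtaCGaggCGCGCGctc
GNB1: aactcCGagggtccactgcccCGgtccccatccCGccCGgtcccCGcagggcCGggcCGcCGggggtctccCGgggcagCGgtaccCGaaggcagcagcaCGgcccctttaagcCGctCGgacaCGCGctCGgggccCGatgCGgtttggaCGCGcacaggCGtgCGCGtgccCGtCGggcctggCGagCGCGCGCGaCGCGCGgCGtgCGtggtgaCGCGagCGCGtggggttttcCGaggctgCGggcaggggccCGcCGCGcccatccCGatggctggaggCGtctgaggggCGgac
CG occurred 49 times in the TP73 window, 45 times in HES5, 40 times in AJAP1, 34 times in CAMTA1 and 48 times in GNB1. Of all 35116 RefSeq promoters of this length, with a median of 14, 1.6% held at least as many as TP73, 3.48% as many as HES5 and 7.61% as many as AJAP1. The shares were 15.6% for CAMTA1 and 1.98% for GNB1. The GNB1 window was thus nearly as rich in CG as that of TP73, while the nearest island to its start was 48.5 kb away in LY19Y646F and 115 kb away in LY19WT. The table matched 36 of the 46 listed genes and had no entry for SKI, PRDM16 or CHD5.

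LY19Y646F covered the segment broadly with H3K27me3, whereas LY19WT had few and narrow islands beyond the first 1 Mb. Islands covered 36.2% of the segment in LY19Y646F and 5.89% in LY19WT. From 1 to 10 Mb, LY19Y646F had 405 islands over 3409 kb, against 60 islands over 244 kb in LY19WT, which was 37.9% and 2.71% of that stretch. The first 1 Mb ran the other way, with 26 islands and 20.9% covered in LY19Y646F, against 39 islands and 34.5% in LY19WT. Coverage of LY19Y646F was highest from 7 to 8 Mb (66.4%, against 7.66% in LY19WT) and from 4 to 5 Mb, where 73 islands covered 57.9% and LY19WT had 0 islands. It was lowest from 1 to 2 Mb, at 13.7% in LY19Y646F and 1.92% in LY19WT.

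**Figure D1:**
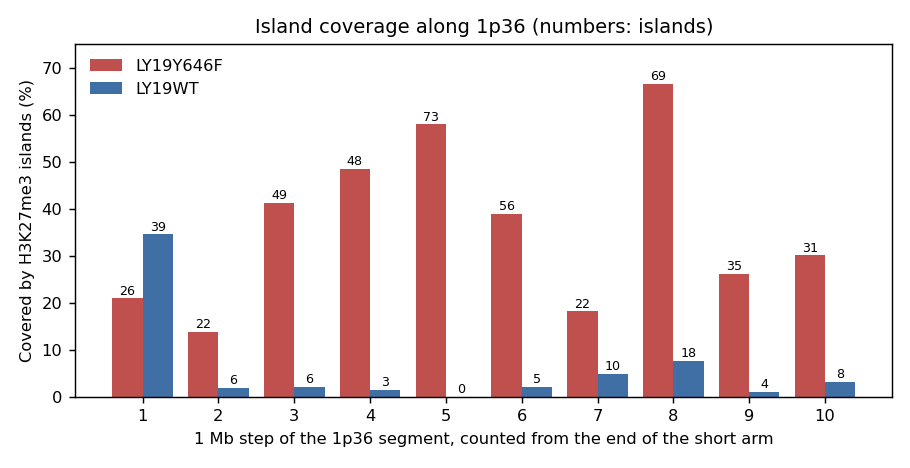
Share of each 1 Mb step of the 1p36 segment covered by H3K27me3 islands (y axis, %), counted from the end of the short arm (x axis), with LY19Y646F left and LY19WT right and the number of islands above each bar. LY19WT is higher in the first step alone, 34.5% against 20.9% in LY19Y646F, and is at most 7.66% in the others.

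Among 300 bins of 10 Mb on the autosomes, the segment ranked 14th in coverage in LY19Y646F and 245th in LY19WT. The excess of LY19Y646F over LY19WT, 30.3 percentage points, was the second largest of these bins. The next stretch of chromosome 1, from 10 to 20 Mb, was covered alike, to 39.4% with 438 islands in LY19Y646F and to 34.9% with 381 islands in LY19WT. Over the first 10 Mb of the 16 other autosomes with at least 5 islands there in both lists together, coverage ran from 0.47% to 52.7% in LY19Y646F (median 19.1%) and from 10.4% to 48.4% in LY19WT (median 19.2%). The LY19WT value of the segment lay below these 16, and that of LY19Y646F lay within their range. Chromosome 21, left out by that minimum, had 3 islands in LY19Y646F and 0 in LY19WT. The end of chromosome 18 beyond 70 Mb had the next largest excess of LY19Y646F, with 314 islands in LY19Y646F and 39 in LY19WT.

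Islands of LY19Y646F in the segment were slightly wider than the other autosomal islands, and those of LY19WT were narrower. The median width was 6.4 kb in LY19Y646F (quartiles 4.2 and 10.6 kb) and 4.0 kb in LY19WT (2.6 and 6.5 kb), and it was 5.8 kb over the other autosomal islands of each line. The LY19Y646F width was not particular to the segment. On chromosome 1 from 10 to 20 Mb the medians were 6.4 kb in LY19Y646F and 6.2 kb in LY19WT. On chromosome 18 from 70 to 80 Mb they were 6.6 and 3.8 kb. Within the segment, from 1 to 10 Mb, the LY19WT median was 3.6 kb and its widest island 12 kb. There, 20 of 405 LY19Y646F islands and 0 of 60 LY19WT islands were wider than 20 kb. Among the other autosomal islands these were 2376 of 46944 in LY19Y646F and 5665 of 57755 in LY19WT. The longest LY19Y646F island ran from 2575601 to 2632800 and was 57.2 kb wide, with 9946 ChIP and 1214 input reads. Its input density, 21.2 reads per kb, was 2.52 times the autosomal median, and LY19WT covered 6.99% of it with an island from 2583601 to 2587600 of 384 ChIP and 93 input reads. It lay between TNFRSF14 and PRDM16.

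The other long LY19Y646F islands had input below the autosomal median. The next, from 7057601 to 7101800 within CAMTA1, was 44.2 kb wide with 2258 ChIP and 358 input reads, and LY19WT covered 5.88% of it. The third, from 3099601 to 3137400 within PRDM16, was 37.8 kb wide with 1830 and 241 reads and held no LY19WT island. The fourth, from 9516401 to 9549600, was 33.2 kb wide with no LY19WT island, and the fifth, from 7024001 to 7056600 within CAMTA1, was covered to 15.3% in LY19WT. The 5 longest LY19WT islands all lay in the first 1 Mb. The longest ran from 387601 to 424000, with 2408 ChIP and 276 input reads, and LY19Y646F covered 29.7% of it. The next, from 342401 to 368000, from 230401 to 255400, from 620801 to 644400 and from 573601 to 596600, measured 25.6, 25, 23.6 and 23 kb. LY19Y646F covered 50.8%, 96.8%, 56.8% and 36.5% of these 4.

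In windows of 100 kb, large differences ran in 1 direction. In 34 of the 100 windows, coverage of LY19Y646F exceeded that of LY19WT by 50 percentage points or more, against 2.43% of windows over the genome. LY19WT exceeded LY19Y646F by that much in 0 windows, against 8.82% over the genome. The sparse LY19WT list was part of the choice of the segment, so nothing is read from these shares. The longest run of such windows, from 2700001 to 3500000 over PRDM16 and most of MEGF6, had 69.6% in islands of LY19Y646F and 0.4% in those of LY19WT. The run from 7000001 to 7700000 over CAMTA1 was covered to 76.1% in LY19Y646F and to 8.6% in LY19WT. Single windows from 5700001 to 5800000, 5500001 to 5600000 and 3600001 to 3700000 were covered to 74.2%, 76.0% and 68.0% in LY19Y646F, and to 0%, 4.0% and 0% in LY19WT. Among stretches with more coverage in LY19WT, the largest excess was from 1 to 200000, at 11.8% in LY19Y646F and 44.2% in LY19WT. It was followed by 300001 to 700000, at 17.4% in LY19Y646F and 44.9% in LY19WT. The last 2, from 6800001 to 6900000 and from 6300001 to 6400000, had 13% and 1.4% in LY19Y646F, and 19.4% and 3.4% in LY19WT.

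Stretches free of islands differed in length. The longest in LY19Y646F ran from 8389801 to 8880000, spanned RERE, a coregulator of nuclear receptors, and held no LY19WT island. The next LY19Y646F stretches, from 9586801 to 9933400, over PIK3CD and CLSTN1, and from 1548001 to 1871000, over GNB1, were also empty in LY19WT. The longest in LY19WT, from 3722201 to 5493000, measured 1771 kb and held 94 LY19Y646F islands over 729.6 kb. The second LY19WT stretch, from 2587601 to 3313000, held 44 LY19Y646F islands over 478.8 kb.

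Raw input density over islands was low in LY19WT over most of the segment, and its median in the first 1 Mb was near the usual level. The median from 1 to 10 Mb was 7.31 input reads per kb in LY19Y646F and 4.21 in LY19WT, against autosomal medians of 8.42 in LY19Y646F and 8.41 in LY19WT. Relative to these medians the values were 0.868 in LY19Y646F and 0.50 in LY19WT. From the summed reads, input density over the same stretch was 0.840 times that of the other autosomal islands in LY19Y646F (95% exact Poisson interval 0.830 to 0.851) and 0.530 times in LY19WT (0.50 to 0.561). These intervals cover counting error only. They do not cover the choice of the segment, partly by low LY19WT input, or of this stretch, made after the data were seen. Over the whole segment the summed values were 0.860 in LY19Y646F and 0.804 in LY19WT. In the first 1 Mb the relative medians were 1.06 in LY19Y646F and 1.01 in LY19WT. From 10 to 20 Mb they were 0.930 in LY19Y646F and 1.01 in LY19WT.

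**Figure D2:**
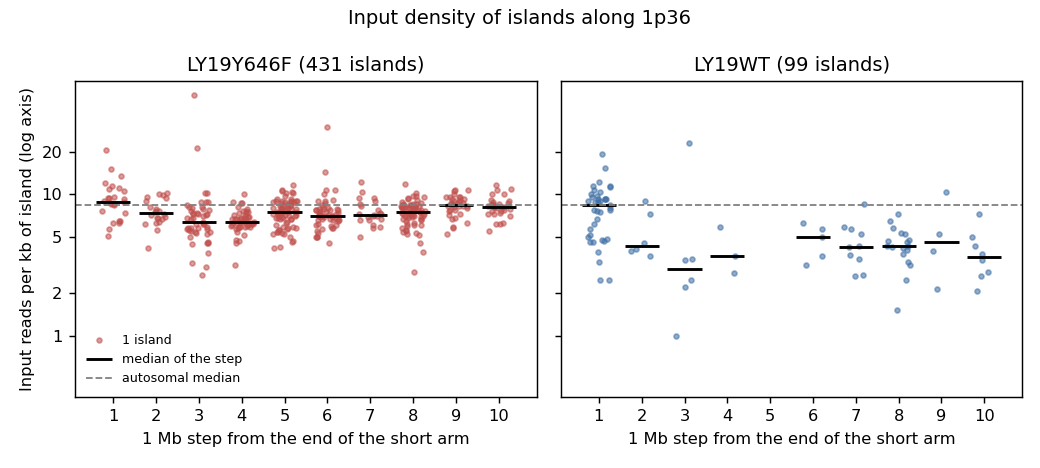
Input reads per kb of island (y axis, log scale) by 1 Mb step from the end of the short arm (x axis), LY19Y646F left and LY19WT right, with 1 point per island, a black line at the median of each step and a dashed line at the autosomal median of the line. LY19WT medians lie between 2.96 and 5.00 reads per kb beyond the first step, where it had islands, and LY19Y646F medians between 6.36 and 8.48.

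Input of single islands is given as a description, because low LY19WT input was part of the choice of the segment. From 1 to 10 Mb, 57 of 405 LY19Y646F islands and 49 of 60 LY19WT islands had an input density below the 5th percentile of their line, against 4.82% of LY19Y646F and 4.79% of LY19WT autosomal islands. At or above the autosomal median stood 97 LY19Y646F islands and 4 LY19WT islands. Toward the end of the arm, the LY19WT islands from 679001 to 686400 and from 701401 to 704000 had 10.1 and 8.46 input reads per kb. The next, from 798801 to 801800 and from 802801 to 805200, had 3.33 and 4.58, and the 5 from 851601 to 975600 had between 2.5 and 5.0. Between these, input was high in both lines, at 20.8 reads per kb in the LY19Y646F island from 812401 to 835000, and at 19.3 and 15.4 in the LY19WT islands from 813201 to 821600 and from 822401 to 836400. Outside that place, LY19WT input was low at most islands from 798801 to 10 Mb, the 4 at or above the autosomal median being exceptions. On the other side, the last LY19WT island inside 10 Mb, from 9497601 to 9500600, had 2.67 input reads per kb. The first beyond, from 10064401 to 10066600, had 10.9, and 563.8 kb without LY19WT islands lay between them. The last LY19Y646F island inside 10 Mb, from 9973401 to 9976200, had 8.57 and the first beyond, from 10072401 to 10084000, had 7.76.

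LY19Y646F input was also somewhat below its autosomal median within the segment. Its relative median was lowest from 2 to 3 Mb and from 3 to 4 Mb, at 0.763 and 0.755, where LY19WT stood at 0.352 over 6 islands and at 0.436 over 3. From 8 to 9 Mb and from 9 to 10 Mb LY19Y646F stood at 1.01 and 0.973, and LY19WT at 0.552 and 0.432. Among autosomal bins of 10 Mb with at least 5 islands, the segment had the 42nd lowest of 277 input values in LY19Y646F and the second lowest of 280 in LY19WT. The lowest in LY19WT was the end of chromosome 18, at 1.17 in LY19Y646F and 0.439 in LY19WT. Input is seen only inside islands, and islands were called against it. With these lists, a difference in the amount of DNA cannot be told apart from a difference in the mark, and the part of low input in the island counts was not tested.

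**Figure D3:**
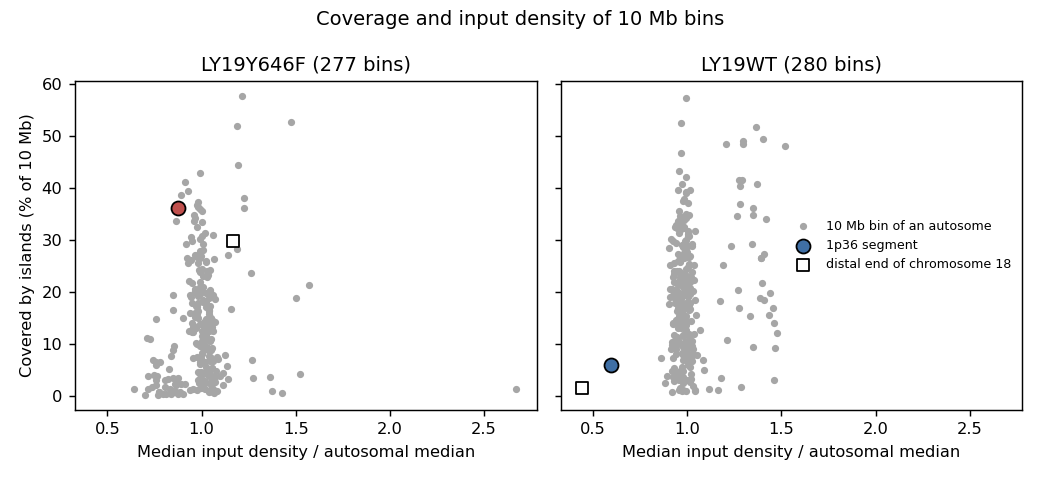
Share of each 10 Mb autosomal bin covered by islands (y axis, %) against its median input density over the autosomal median (x axis), LY19Y646F left (277 bins) and LY19WT right (280 bins). The 1p36 segment (large circle) lies at 0.873 and 36.2% in LY19Y646F and at 0.595 and 5.89% in LY19WT, and the open square is the end of chromosome 18.

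Raw ChIP density over the called islands was near the usual level of each line. The median over the segment was 43.8 ChIP reads per kb in LY19Y646F and 58.5 in LY19WT, against autosomal medians of 41.8 in LY19Y646F and 57.4 in LY19WT. From 1 to 10 Mb it was 43.9 in LY19Y646F and 54.2 in LY19WT, which was 1.05 and 0.944 times the autosomal median of the line. The 5th percentiles of ChIP density over autosomal islands were 35.4 reads per kb in LY19Y646F and 45.6 in LY19WT, and 11 of 405 and 3 of 60 islands of the stretch fell below them. The few LY19WT islands thus carried nearly as many ChIP reads per kb as islands elsewhere, with 0.50 times the input. Islands are called where ChIP reads are dense, so their ChIP density is kept near the usual level by the calling. ChIP density outside islands is not seen here. The authors' fold, ChIP over input divided by a constant for library size, had a median of 2.30 in LY19Y646F (quartiles 1.99 and 2.71) and 4.39 in LY19WT (3.15 and 5.90) from 1 to 10 Mb. Autosomal medians were 1.90 and 2.28, and the fold rises by construction where input is low.

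The islands with the highest folds had very few input reads. In LY19Y646F the first was from 7108401 to 7112600 within CAMTA1, at 5.69 with 179 ChIP and 12 input reads. The next, from 2385401 to 2390200, stood at 5.67 with 193 and 13 reads, and the third, from 3411401 to 3417400 in MEGF6, at 5.06 with 252 and 19. The next, from 2376201 to 2381400 and from 2797401 to 2805200, stood at 4.89 and 4.81. LY19WT held no island at any of these 5 places. In LY19WT the highest fold, 17.3, came from 213 ChIP and 4 input reads from 2529401 to 2533400, where LY19Y646F covered 95%. The second, 12.4 from 7212201 to 7214800 within CAMTA1, had 153 ChIP and 4 input reads and was wholly covered in LY19Y646F. The others, from 9067401 to 9069800, from 8378801 to 8380200 and from 2310401 to 2312200, had folds of 9.57, 9.44 and 9.19 over 5, 3 and 4 input reads. With 3 to 5 input reads these folds are imprecise. LY19Y646F covered 83.3% of the first of these 3 and nothing of the others.

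Most LY19WT islands of the segment overlapped a LY19Y646F island, and few LY19Y646F islands met one of LY19WT. Of the LY19Y646F islands, 70 of 431 (16.2%) overlapped LY19WT by at least 1 bp, against 56.5% over the genome. Of the LY19WT islands, 74 of 99 (74.7%) overlapped LY19Y646F, against 39.1% over the genome. From 1 to 10 Mb the counts were 48 of 405 in LY19Y646F and 53 of 60 in LY19WT, and the shared 202.6 kb made up 5.94% of the LY19Y646F and 83.0% of the LY19WT length. LY19Y646F covered more of this stretch than of the genome, and LY19WT less, which moves both shares. Since the sparse LY19WT list was part of the choice of the segment, nothing is read from these overlap shares. LY19Y646F islands there that overlapped LY19WT were 10.3 kb wide at the median with a median fold of 2.27, and those that did not were 6.0 kb wide with 2.31. In the first 1 Mb, 22 of 26 LY19Y646F and 21 of 39 LY19WT islands overlapped.

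At islands matched by at least 50% of both, input was higher in LY19Y646F at the same places. From 1 to 10 Mb there were 14 such pairs, with median input of 8.35 reads per kb in LY19Y646F and 4.67 in LY19WT. LY19Y646F had the higher input in 13 of these 14 pairs, and in 18 of 19 pairs of the whole segment, against 41.5% of 8368 pairs over the genome. Median ChIP density over the 14 pairs was 46.8 reads per kb in LY19Y646F and 52.7 in LY19WT. The median fold was 2.16 in LY19Y646F and 3.66 in LY19WT, a median log2 ratio of -0.76. It was lower in LY19Y646F in 13 of 14 pairs, against 72.7% over the genome. Low LY19WT input was part of the choice of the segment, and the fold rises where input is low. Nothing is therefore read from these shares of pairs. When ChIP density alone was scaled by the autosomal median of each line, the median log2 ratio over these pairs turned to 0.31. The direction at matched islands therefore depends on the measure, as the fold divides by input and the scaled ChIP density does not. The median log2 ratio of input over these pairs was 0.82. No direction is read from the unscaled densities, since autosomal medians were 41.8 ChIP reads per kb in LY19Y646F and 57.4 in LY19WT. Over all 8368 pairs the median log2 ratio was -0.27 for the fold and -0.097 for the scaled ChIP density.

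Among the listed developmental regulators, PRDM16, TP73, CHD5, CTNNBIP1 and SKI had islands on their span in LY19Y646F, and PRDM16 and TP73 had 1 each in LY19WT. HES3, HES4, HES5 and RERE had none in either line. The counts, 5 of 9 in LY19Y646F and 2 of 9 in LY19WT, were near those over all 46 listed genes, 21 in LY19Y646F and 8 in LY19WT. The median covered share was 13.5% in LY19Y646F and 0% in LY19WT, against 0% in both lines over all listed genes. PRDM16 carried 27 LY19Y646F islands over 79.4% of its span, with folds from 2.04 to 4.31. LY19WT had 1 island there, from 3313001 to 3316200, with 166 ChIP and 9 input reads and a fold of 6.0, which was 0.866% of the span. The first PRDM16 island of LY19Y646F began 5.06 kb after the start, and the LY19WT island lay 327 kb after it.

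TP73 carried an island next to its start in both lists. LY19WT had a single island there, from 3569401 to 3578000, with 684 ChIP and 51 input reads and a fold of 4.36, beginning 0.272 kb after the start. LY19Y646F had 5 islands over 68.8% of the gene. The one at the start, from 3570201 to 3578200, had 347 ChIP and 80 input reads and a fold of 1.66, the lowest of the 5, and began 1.07 kb after the start. The widest, from 3612601 to 3634600, had 1060 ChIP and 140 input reads and a fold of 2.89. The TP73 island of LY19WT was thus denser in ChIP reads, at 79.5 per kb, than the median LY19WT island of the genome, while the rest of the gene was covered in LY19Y646F alone.

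CHD5 and SKI had islands in LY19Y646F and none in LY19WT. CHD5 was covered to 54.6% by 3 LY19Y646F islands, from 6176001 to 6184000, from 6188801 to 6206600 and from 6215401 to 6232400. They had 338, 755 and 735 ChIP reads against 55, 117 and 126 input reads, with folds of 2.35, 2.46 and 2.23, and the nearest began 7.78 kb after the start. SKI was covered to 13.5% by 2 LY19Y646F islands, from 2171801 to 2175200 with 139 ChIP and 23 input reads and from 2193601 to 2201200 with 300 and 43. Their folds were 2.31 and 2.66. Another LY19Y646F island lay 4.33 kb from the SKI start. The nearest LY19WT island lay 138 kb from the SKI start and 60.2 kb from that of CHD5. On CTNNBIP1, an inhibitor of beta-catenin, islands took up 21.6% in LY19Y646F and 0% in LY19WT.

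**Figure D4:**
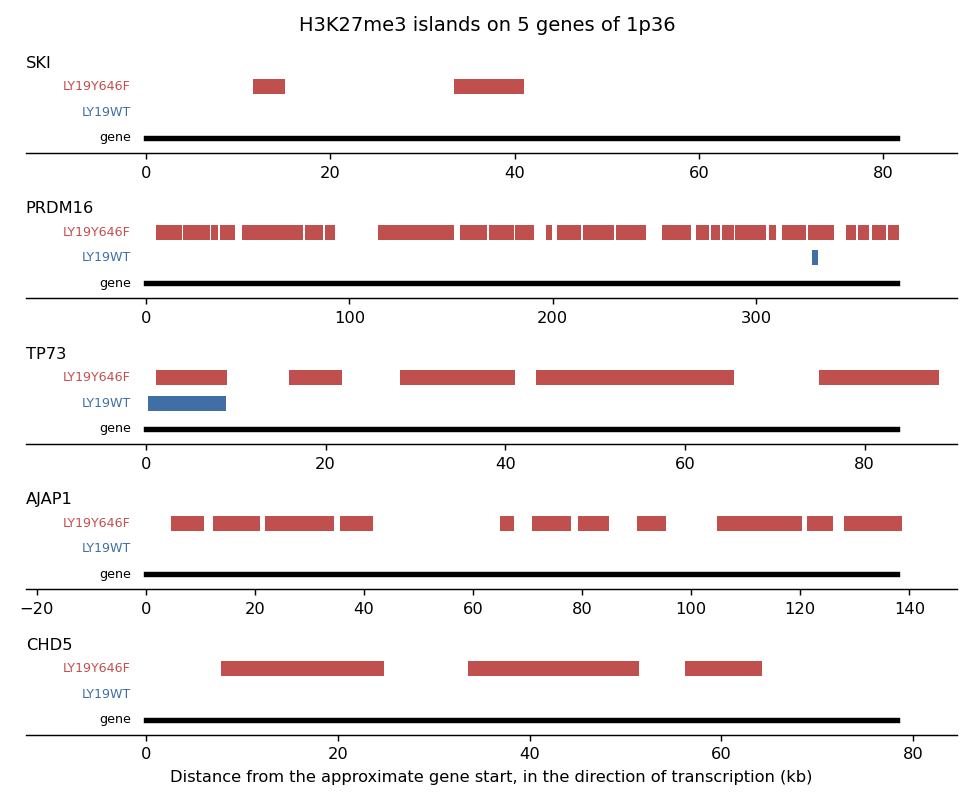
Islands of H3K27me3 (boxes; LY19Y646F above, LY19WT below it) on SKI, PRDM16, TP73, AJAP1 and CHD5, against the distance from the approximate gene start in the direction of transcription (x axis, kb), with the gene as a black line. LY19Y646F has 2, 27, 5, 11 and 3 islands on these genes, and LY19WT has 1 on PRDM16 and 1 on TP73.

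The Notch-pathway repressors HES3 and HES5 had islands beside the start and none on their short spans. The nearest island lay 0.516 kb from the HES5 start in LY19Y646F and 0.116 kb from it in LY19WT. For HES3 the distances were 2.86 kb in LY19Y646F and 0.461 kb in LY19WT. Over the 46 listed genes, 23 had an island within 5 kb of the start in LY19Y646F and 7 in LY19WT, and all 7 were among the 23. The 7 were GABRD, PANK4, HES5, TP73, HES3, TNFRSF9 and SLC45A1. An island reached over the start itself at 4 genes in LY19Y646F, PLCH2, TNFRSF25, TNFRSF9 and CA6, and at 0 genes in LY19WT. The spans used for PLCH2 and TNFRSF9 differed in length from RefSeq by more than 1 kb, so their starts are less sure. At AJAP1 and CAMTA1 the nearest LY19Y646F island lay 3.59 and 24.8 kb from the start, and the nearest LY19WT island 778 and 12.4 kb. On CAMTA1 the first LY19Y646F island began 123 kb into the gene.

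The list headed neuronal and channel genes is a broad one that also holds AJAP1, MEGF6, CAMTA1, PRKCZ and ESPN. Islands were frequent in this list in LY19Y646F, and its counts are not read as a property of neuronal genes. Of 14 genes, 10 had an island in LY19Y646F and 4 in LY19WT, with median covered shares of 37.9% and 0%. Over all 46 listed genes the counts were 21 in LY19Y646F and 8 in LY19WT, with medians of 0% in both. A longer span can hold more islands, and gene length was not taken into account. CAMTA1, the longest listed gene, carried 63 LY19Y646F islands over 64.7% of its span and 18 LY19WT islands over 7.98%. Its folds ran from 1.33 to 5.69 in LY19Y646F and from 2.43 to 12.4 in LY19WT. The longest LY19WT island from 1 to 10 Mb, from 6805001 to 6817000, lay before the CAMTA1 start, with 635 ChIP and 51 input reads, and LY19Y646F covered 66.7% of it. AJAP1 had 11 islands over 61.2% of the gene in LY19Y646F, with folds from 1.99 to 4.03, and 0 in LY19WT, where the nearest island was 778 kb from its start. The widest, from 4819601 to 4835200, had 591 ChIP and 100 input reads.

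GABRD, a subunit of the GABA-A receptor, had 82.2% of its span in islands of LY19Y646F and 0% in LY19WT. Its 2 LY19Y646F islands, from 1951801 to 1957400 and from 1958401 to 1975200, had 299 and 789 ChIP reads, 43 and 105 input reads and folds of 2.65 and 2.87. PRKCZ, an atypical protein kinase C, had 11 islands over 55.7% in LY19Y646F and 0 in LY19WT. MEGF6, a protein of EGF-like repeats, had 9 islands over 60.5% in LY19Y646F and 0 in LY19WT. PLEKHG5 had 51.3% in islands of LY19Y646F and 9.27% in LY19WT. ESPN, an actin-bundling protein of sensory hair cells, had 34.3% in LY19Y646F and 28.2% in LY19WT. AGRN, the organiser of the neuromuscular synapse, was the 1 listed gene with an island in LY19WT and none in LY19Y646F, at 10.6% of its span.

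**Figure D5:**
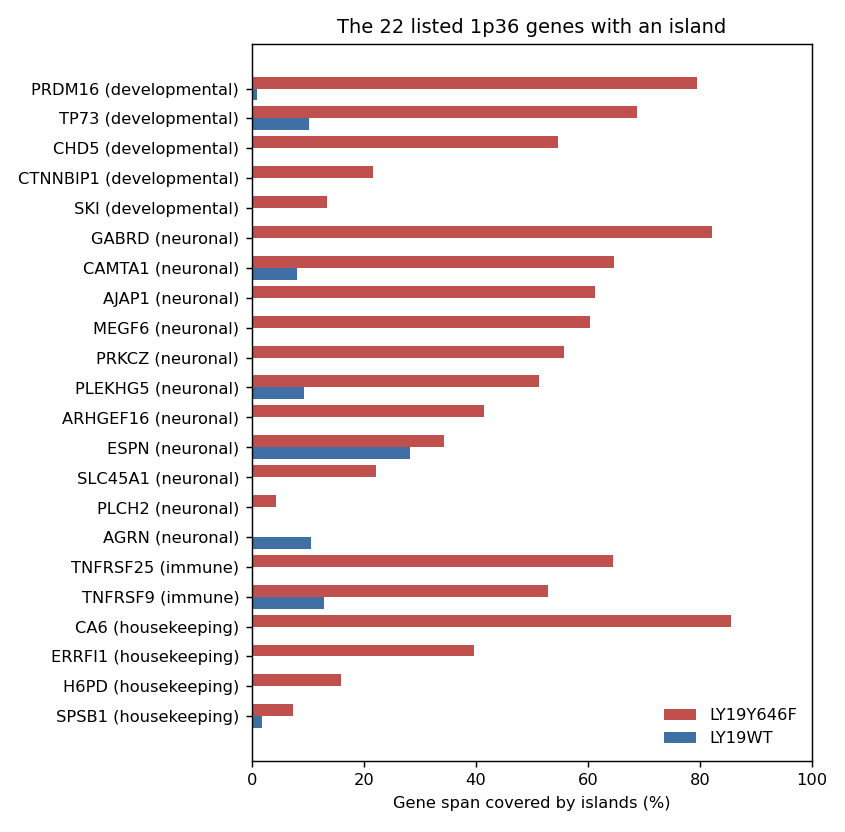
Share of the approximate gene span covered by islands (x axis, %) for the 22 listed genes with an island in either line, grouped by role, with LY19Y646F above LY19WT. Coverage reaches 85.6% in LY19Y646F (CA6) and 28.2% in LY19WT (ESPN), and AGRN is covered in LY19WT alone.

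Of the 7 immune genes, 2 had an island in LY19Y646F and 1 in LY19WT, against 21 and 8 of all 46 listed genes. TNFRSF9, a costimulatory receptor of activated T cells, was covered to 52.8% by 4 islands in LY19Y646F and to 12.9% by 1 island in LY19WT. The LY19WT island, from 7998801 to 8001800, had 173 ChIP and 12 input reads and a fold of 4.69. The LY19Y646F island that reached over the start, from 8002601 to 8008400, had 223 and 48 reads and a fold of 1.77. TNFRSF25, a death receptor of lymphocytes, was covered to 64.5% in LY19Y646F by an island from 6523001 to 6527800 with 180 ChIP and 29 input reads, and to 0% in LY19WT. That island also overlapped the end of the neighbouring gene PLEKHG5. TNFRSF14, a receptor often lost in lymphoma, and TNFRSF4, TNFRSF18, ISG15 and PIK3CD had no island on their span in either line.

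Housekeeping and metabolic genes were mostly free of islands in both lines. Of 16 genes, 4 had an island in LY19Y646F, 1 had one in LY19WT and 12 had none in either line, RPL22, PARK7, ENO1 and GNB1 among them. Over all 46 listed genes these counts were 21, 8 and 24. Islands took up 85.6% of CA6, a carbonic anhydrase secreted by salivary glands, in LY19Y646F and 0% in LY19WT. Its islands, from 8990001 to 9019200 and from 9023401 to 9045000, had 1500 and 1051 ChIP reads and 263 and 171 input reads. ERRFI1, a feedback inhibitor of EGF receptors, had 39.7% in islands of LY19Y646F and 0% in LY19WT. H6PD, an enzyme of the endoplasmic reticulum, had 15.9% in LY19Y646F and 0% in LY19WT. For SPSB1 the shares were 7.31% in LY19Y646F and 1.83% in LY19WT.

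Of 6 miRNA genes of the segment, added after the islands had been seen and placed at approximate hg19 positions, 5 lay in a LY19Y646F island and 0 in a LY19WT island. Islands covered 36.2% of the whole segment in LY19Y646F and 5.89% in LY19WT. The mature sequences (RefSeq, GRCh38.p14) are printed 5′ to 3′ with the seed, bases 2 to 8, in capitals, because 2 members of the miR-200 family shown here share a seed.
hsa-miR-200b-3p: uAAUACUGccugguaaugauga
hsa-miR-429: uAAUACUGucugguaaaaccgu
hsa-miR-200a-3p: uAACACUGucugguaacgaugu
hsa-miR-34a-5p: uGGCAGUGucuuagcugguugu
hsa-miR-551a: gCGACCCAcucuugguuucca
hsa-miR-4251: cCUGAGAAaagggccaa
The seed AAUACUG is shared by miR-200b-3p and miR-429, and miR-200a-3p has the seed AACACUG. This family represses the ZEB transcription factors in epithelial cells. MIR200A and MIR429 lay in a LY19Y646F island from 1102601 to 1106400 with 138 ChIP and 27 input reads and a fold of 1.95, and MIR200B lay just before it. MIR34A, a target of p53, lay in the LY19Y646F island from 9193401 to 9213600 with 878 and 166 reads and a fold of 2.02. MIR551A, within MEGF6, lay in an island from 3470801 to 3488200 with 859 and 131 reads, and MIR4251, within PRDM16, in one from 3032801 to 3063000 with 1489 and 177 reads.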

How the data were processed

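H3K27me3 ChIP-seq islands of LY19Y646F and LY19WT were analysed from 1 deposited list per line. The submitters' processing notes name hg19, SICER, bedtools, SAMtools 1.3.1 and Bowtie2 2.2.9. Per the labels, replicates were merged and islands called against input at an FDR of 0.001. The deposited counts are raw ChIP and input reads inside each island. The authors also deposited a p-value, an FDR and a fold, which is a linear ratio. The fold equalled ChIP over input divided by a constant, 2.62 in LY19Y646F and 3.07 in LY19WT. Library totals are not used here. Islands of the segment held 171851 ChIP and 28505 input reads in LY19Y646F, and 40520 and 4233 in LY19WT.

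Positions are printed 1-based. Coverage is the length of member islands over 10 Mb, assembly gaps included. Densities are reads per kb, and relative input is input density over the autosomal median of that line. Named genes were the 5 of the opening, those covered to at least 50% and the 3 with the longest cover per group. Named islands were the 5 longest and the 5 with the highest fold, per line, and named windows the 5 runs in which either line exceeded the other most (4 for LY19WT). Other genes named (ESPN, AGRN, CTNNBIP1, SPSB1, HES3, HES5 and genes without islands) and the promoters printed were chosen after their values were seen. Approximate hg19 spans of genes and miRNAs came from general knowledge and were checked against no hg19 annotation. The order of the genes matched RefSeq GRCh38.p14 for 46 of 46 genes and their length was within 1 kb for 38. The other 8 were PRKCZ, PLCH2, TNFRSF14, MEGF6, TNFRSF9, SLC45A1, SLC25A33 and PIK3CD. Members and lists were chosen with earlier results of these data known. No count model was used. The tools were scipy 1.17.1, pandas 2.3.3, numpy 2.4.6 and Python 3.11.15, and the steps were tested on simulated data.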

Additional observations from a re-analysis of the deposited data

How the results depend on the processing

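No paired analysis was possible because the replicates were merged before islands were called, and no replicate could be left out for the same reason. In every alternative run the segment had more LY19Y646F than LY19WT islands. Coverage with FDR limits of 1e-05 and 1e-10 was 35.7% and 34.9% in LY19Y646F. Joining islands across 5 kb gave 174 LY19Y646F islands, and coverage of 41.2% in LY19Y646F and 6.37% in LY19WT. Segments of 0 to 8, 0 to 12 and 1 to 10 Mb gave 38.2%, 35.5% and 37.9% in LY19Y646F, and 6.84%, 8.36% and 2.71% in LY19WT, where the last held 60 islands. Keeping the LY19WT islands of lowest p-value, up to the total length of those of LY19Y646F, left 57 islands and 4.41%. Relative input was 0.804 in LY19WT from summed reads, of which 3078 of 4233 lay in the first 1 Mb, and 0.50 from 1 to 10 Mb. Over paired islands it was 1.05 in LY19Y646F. Overlap of LY19Y646F islands was 8.35% at 50% of the island, 4.41% at 50% of both and 11.9% from 1 to 10 Mb. Overlap of LY19WT islands was 19.2% at 50% of both and 88.3% from 1 to 10 Mb. At 50% of both there were 19 pairs among the 431 LY19Y646F and 99 LY19WT islands of the segment. Over the genome there were 8368 such pairs among 47432 LY19Y646F and 58144 LY19WT islands. The log2 ratio of paired islands was -0.79 and turned to 0.27 when ChIP density was scaled by the autosomal median of each line, in place of input and the library constant. Windows of 50 kb gave 0.05 Mb higher in LY19WT. Gene spans widened by 10 kb gave 34 genes in LY19Y646F and 19 in LY19WT. The 1 to 10 Mb segment was chosen after seeing the data. LY19WT values rest on 1155 input reads from 1 to 10 Mb, which limits single islands most.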
